A study of Arabidopsis thaliana with 6 samples.

Results

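The GASA genes (gibberellic acid-stimulated in Arabidopsis) were followed in whole seedlings of Arabidopsis thaliana. The set held 10 genes, chosen by gene identifier, of the 32678 listed in each library: GASA1 to GASA6, GASA9, GASA10, GASA11 and GASA14. Polyadenylated RNA was sequenced from 3 libraries of csu6-2, a line mutant in COP1 SUPPRESSOR 6, and 3 libraries of the wild-type accession Col-0. Seedlings of both genotypes had been kept for 5 days in white light. The mutant was represented by a single line, and its mutation is not described in the sources used here. The study's title places COP1 SUPPRESSOR 6 as a brake on PIF4 and PIF5, transcription factors of hypocotyl growth, so csu6-2 was compared with Col-0. Nothing in the labels says that the 3 libraries of a genotype came from separate cultures, so p-values measure the spread between these libraries, which may be technical.

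Gibberellins are growth hormones that bind GID1 receptors and so cause the DELLA repressors to be destroyed. GASA genes encode small secreted peptides, named after a gibberellin-induced gene of tomato, GAST1. Their shared C-terminal domain carries cysteines at fixed positions that form disulfide bridges. Members have been tied to germination, flowering, cell elongation and redox balance, and not every member is induced by gibberellin.

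What the members share was read from the TAIR10.1 reference annotation, in which all 10 are protein-coding. The last coding exon held 12 cysteine codons in 10 of 10 members. It was 182 bases long in 8 of them, 188 bases in GASA10 and 185 bases in GASA14. In all 28 pairs among the 8 genes with an exon of equal length the cysteine codons stood at the same positions, and ungapped identity ran from 46.2 to 87.9% with a median of 58.2%. The coding part of the last exon is shown for the 3 most abundant members, 5′ to 3′ on the coding strand, with the cysteine codons (TGT or TGC) in capitals. It lies at chr1:28053712-28053893 on the plus strand for GASA6, chr5:4945844-4946025 on the plus strand for GASA4 and chr1:28441813-28441994 on the minus strand for GASA1.
GASA6: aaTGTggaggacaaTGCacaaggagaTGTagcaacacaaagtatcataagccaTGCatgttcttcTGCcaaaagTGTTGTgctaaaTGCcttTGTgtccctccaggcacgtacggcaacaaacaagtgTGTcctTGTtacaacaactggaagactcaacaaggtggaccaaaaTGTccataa
GASA4: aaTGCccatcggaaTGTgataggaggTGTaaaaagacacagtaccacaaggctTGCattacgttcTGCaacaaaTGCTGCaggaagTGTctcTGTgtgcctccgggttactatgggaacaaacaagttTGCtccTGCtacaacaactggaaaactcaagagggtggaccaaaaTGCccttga
GASA1: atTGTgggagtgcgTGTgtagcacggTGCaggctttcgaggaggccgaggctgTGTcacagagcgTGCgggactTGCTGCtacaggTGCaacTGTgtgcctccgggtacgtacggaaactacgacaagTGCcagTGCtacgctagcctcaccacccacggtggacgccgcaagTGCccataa
GASA6 was 70.3% identical to GASA4 and 71.4% identical to GASA5 over this exon, against 50% to GASA1. The highest identity was that of GASA2 with GASA3, neighbours on chromosome 4 with 1123 bases between them. No pair of the 45 shared an identical run of 50 coding bases, so error-free reads of that length or more within the coding sequence differ between members. Untranslated parts were not compared, and assignment of reads to another member with mismatches was not tested.

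**Figure D1:**
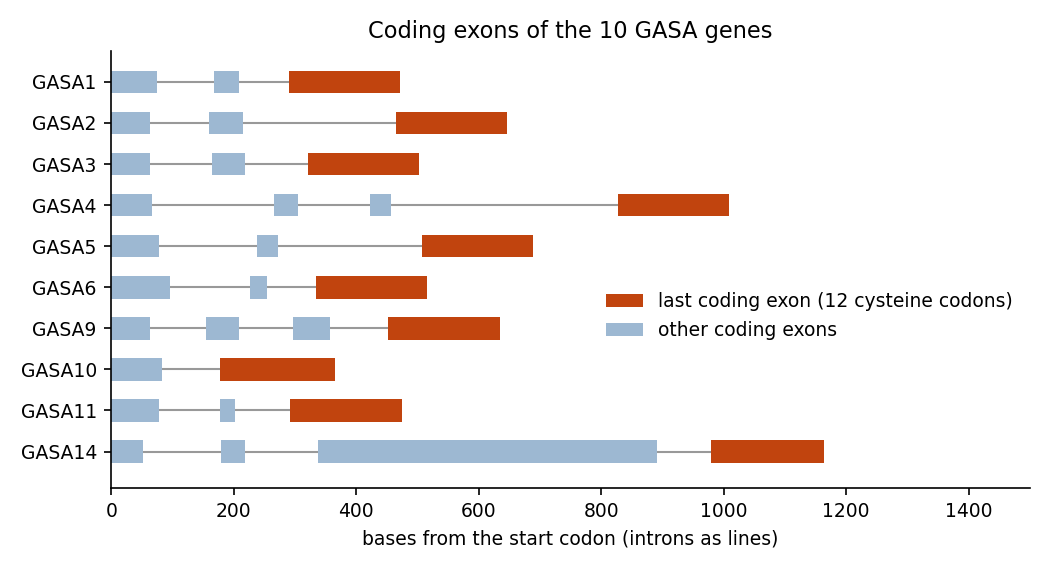
Coding exons of the 10 GASA genes, drawn to scale from the start codon in bases, with introns as lines. The last coding exon (red) is 182 bases long in 8 genes and holds 12 cysteine codons in every gene, while GASA14 has a long exon before it.

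Levels are given in RPKM, a read count scaled to gene length and to library size, so that genes of different length can be compared. Of the 10 members, 7 passed the filter of at least 1 RPKM in 3 or more libraries and were tested. Across all 18885 tested genes the threshold was an adjusted p under 0.05 (limma on log2(RPKM + 1), two-sided). It was passed by 12.9% of them, 3.55% higher and 9.38% lower in csu6-2 (671 and 1771 genes, or 1066 and 1113 with median-of-ratios scaling). Among the 7 tested members, 1 was higher (GASA6), 1 was lower (GASA4) and 5 did not pass. The median log2 change was 0.09 over the 7 members and -0.07 over all tested genes. The genotypes did not overlap for the same pair of members (1 higher, 1 lower), while of all tested genes 32.0% did not overlap, 9.04% higher and 23.0% lower.

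GASA6 (AT1G74670; TAIR10.1, chromosome 1, 28053030 to 28054149, plus strand) rose in csu6-2 and was the most abundant member in both genotypes. It has been described as a promoter of germination and cell elongation that responds to gibberellin, abscisic acid and glucose. Its level was 644.9, 684.8 and 715.9 RPKM in csu6-2 replicates 1 to 3, and 362.5, 343.7 and 341.7 RPKM in Col-0 replicates 1 to 3. Every mutant library lay far above every wild-type library, and the wild-type libraries were close to each other. The means were 681.9 ± 35.6 RPKM in csu6-2 and 349.3 ± 11.5 RPKM in Col-0 (SD, n = 3 each), a ratio of 1.95. The log2 change was 0.96 (SE 0.07, 95% interval 0.80 to 1.12, adjusted p = 6.28e-06). Among the 18885 tested genes this was the 21st lowest p and the 75th largest rise. GASA6 passed under all 13 alternatives run, with log2 changes of 0.93 to 1.04.

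GASA4 (AT5G15230; chromosome 5, 4944816 to 4946299, plus strand) was lower in csu6-2. It encodes a gibberellin-induced peptide with redox activity that promotes flowering and gibberellin responses. Its level was 281.5, 242.7 and 249.8 RPKM in csu6-2, and 288.8, 335.7 and 310.2 RPKM in Col-0. The groups did not overlap, but the highest mutant library lay just under the lowest wild-type library. The log2 change was -0.27 (SE 0.08, 95% interval -0.45 to -0.09, adjusted p = 0.0464). GASA4 passed under 6 of 13 alternatives. The call was lost with median-of-ratios scaling (log2 change -0.20, adjusted p = 0.145), without a filter (adjusted p = 0.0879) and without limma's trend and robust options (adjusted p = 0.102). It also ended when a library was dropped, with adjusted p = 0.175 for csu6-2 replicate 2, 0.117 for csu6-2 replicate 3, 0.182 for Col-0 replicate 2 and 0.0906 for Col-0 replicate 3, while the log2 change stayed between -0.34 and -0.20 under the alternatives.

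**Figure D2:**
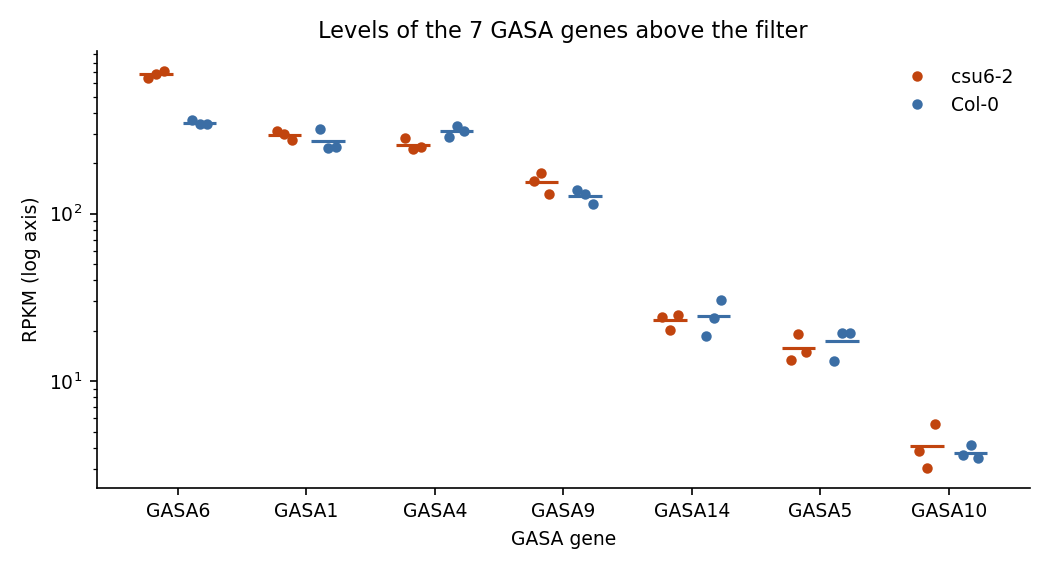
RPKM (log axis) of the 7 tested GASA genes in each library, ordered by their mean in csu6-2, with csu6-2 in red and Col-0 in blue. Points are libraries and bars are means of 3. The 2 groups are apart for GASA6 (644.9 to 715.9 against 341.7 to 362.5 RPKM) and narrowly for GASA4, and they overlap for the other 5.

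All 4 green-tissue markers and 3 of the 4 root markers were tested. In each set 1 was called, PSAD1 higher and PYK10 lower in csu6-2. Of all tested genes 12.9% were called. The 4 green-tissue markers summed to 18823 to 19959.7 RPKM in csu6-2 and 14953 to 16549 RPKM in Col-0. Of these, PSAD1, of photosystem I, was called higher (ratio of means 1.31), and the other 3 had higher means in csu6-2 without passing. Their rises were uneven. The ratio was 2.53 for LHCB2.1 (adjusted p = 0.0522), 1.15 for RBCS1A (adjusted p = 0.145) and 1.09 for RCA (adjusted p = 0.469). The groups overlapped for RCA. The 4 root markers summed to 987.9 to 1131 RPKM in csu6-2 and 1229.5 to 1312 RPKM in Col-0, a difference made by PYK10 alone. PYK10, a beta-glucosidase gene of roots and hypocotyls, was lower (1034 against 1249.9 RPKM on average, adjusted p = 0.0361). The means of the other 3 root markers were higher in csu6-2, by ratios of 1.18 for CASP1, 1.13 for EXPA7 and 1.08 for COBL9, with overlapping groups. CASP1 and EXPA7 did not pass, and COBL9, at 0.72 to 1.30 RPKM, was under the filter and not tested. None of the 8 markers was at 0 throughout. Fewer cells of a type and less RNA per cell cannot be told apart in whole seedlings, and the part of these differences in the GASA6 and GASA4 values was not tested.

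GASA1 and GASA9 were the other abundant members, and neither passed. GASA1 (AT1G75750; chromosome 1, 28441501 to 28442435, minus strand), one of the first members isolated by likeness to tomato GAST1, had 314.0, 297.4 and 275.7 RPKM in csu6-2, and 321.3, 248.4 and 249.95 RPKM in Col-0. A single wild-type library, replicate 1, lay above every mutant library, so the groups overlapped (log2 change 0.12, 95% interval -0.09 to 0.34, adjusted p = 0.467). With a library dropped the log2 change of GASA1 ran from 0.059 without Col-0 replicate 2 (adjusted p = 0.816) to 0.24 without Col-0 replicate 1 (adjusted p = 0.0844). GASA9 (AT1G22690; chromosome 1, 8027126 to 8028168, plus strand) had 157.4, 176.3 and 130.6 RPKM in csu6-2, and 139.2, 131.7 and 114.2 RPKM in Col-0. Here mutant replicate 3 lay within the wild-type range (log2 change 0.26, 95% interval 0.02 to 0.51, adjusted p = 0.151). The log2 change of GASA9 depended on the libraries kept. Dropping csu6-2 replicate 3 gave 0.38, which passed (adjusted p = 0.0245), whereas dropping csu6-2 replicate 2 gave 0.16 (adjusted p = 0.411) and dropping Col-0 replicate 3 gave 0.18 (adjusted p = 0.345).

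Among the members of middle level, GASA14 (AT5G14920) joins the cysteine-rich domain to a long proline-rich stretch and has been tied to leaf expansion. It had 24.1, 20.1 and 24.95 RPKM in csu6-2, and 18.7, 24.0 and 30.4 RPKM in Col-0, with wild-type libraries on both sides of the mutant range. GASA5 (AT3G02885), reported as a brake on gibberellin-promoted flowering and stem growth, had 13.4, 19.0 and 14.9 RPKM in csu6-2, and 13.1, 19.4 and 19.4 RPKM in Col-0. Its libraries spread more within a genotype than the means differed, at 15.8 ± 2.90 RPKM in csu6-2 and 17.3 ± 3.63 RPKM in Col-0 (SD, n = 3 each). GASA10 (AT5G59845), a gene of low level here, had 3.82, 3.03 and 5.52 RPKM in csu6-2, and 3.60, 4.13 and 3.49 RPKM in Col-0. The 95% intervals of the log2 change were -0.44 to 0.33 for GASA14, -0.51 to 0.28 for GASA5 and -0.26 to 0.43 for GASA10, so changes of these sizes in either direction could not be told from none (adjusted p = 0.869, 0.713 and 0.772). The sign for GASA14 turned with median-of-ratios scaling (log2 change 0.018) and when csu6-2 replicate 2 (0.036) or Col-0 replicate 3 (0.11) was dropped, and that for GASA10 turned without csu6-2 replicate 3 (-0.10).

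GASA2 (AT4G09610), GASA3 (AT4G09600) and GASA11 (AT2G18420) were at or near 0 in all 6 libraries and were not tested. GASA2 and GASA3 are known as genes of seeds and siliques. GASA2 was listed at 0 in all 3 csu6-2 libraries and in 2 Col-0 libraries, with 0.13 RPKM in Col-0 replicate 1. GASA3 had 0.09, 0.22 and 0.20 RPKM in csu6-2, and 0.11, 0.08 and 0 RPKM in Col-0. GASA11 had 0.09 RPKM in csu6-2 replicate 1 and 0.16 RPKM in Col-0 replicate 2, and was listed at 0 in the other 4 libraries. Low values, multiplied by gene length, came in steps, which put the depth at 13.4 to 20.8 M of the smallest common unit per library, a read or a read pair. On that scale these 3 genes had at most 2 units in a library, so no difference between genotypes was detectable at this depth. Genes for seed storage and late seed proteins, which mark seed tissue, were low as well. The 5 seed markers summed to 1.40 to 4.65 RPKM in csu6-2 and 2.51 to 3.14 RPKM in Col-0. The 3 floral organ markers summed to 0.66 to 1.33 RPKM in csu6-2 and 0.84 to 1.31 RPKM in Col-0.

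Ordered by mean level, the members ran GASA6, GASA1, GASA4, GASA9, GASA14, GASA5 and GASA10 in csu6-2. GASA6 stood clear of GASA1 there, and GASA1 was above GASA4 in 3 of 3 libraries although their ranges overlapped. In Col-0 the order was GASA6, GASA4, GASA1, GASA9, GASA14, GASA5 and GASA10. GASA4 was above GASA1 in 2 of 3 Col-0 libraries, and the ranges of GASA4 and GASA1 overlapped, as did those of GASA14 and GASA5. Among all 32678 genes, the mean of GASA6 ranked 134th in csu6-2 and 333rd in Col-0.

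The summed level of the 10 members was 1439, 1444 and 1418 RPKM in csu6-2, and 1147, 1107 and 1069 RPKM in Col-0. All mutant sums were above all wild-type sums, by 1.29-fold on average. This separation was fixed by GASA6, at 644.9 RPKM or more in csu6-2 and 362.5 RPKM or less in Col-0. The other 9 members summed to 701.7 to 794.4 RPKM over all libraries, so no test of the full sum is given. Without GASA6 these 9 summed to 751.6 ± 46.7 RPKM in csu6-2 and 758.7 ± 29.0 RPKM in Col-0 (SD, n = 3 each). An exact permutation test over libraries gave a two-sided p = 0.9, where the smallest possible p with 3 against 3 libraries is 0.1. The sum mixes members that moved in opposite directions. The mean of GASA4 was 258.0 RPKM in csu6-2 against 311.6 RPKM in Col-0. Those of GASA1 (295.7 against 273.2 RPKM) and GASA9 (154.8 against 128.4 RPKM) were higher in csu6-2. A similar sum therefore does not show that each of the 9 was unchanged. GASA6 made up 44.8, 47.4 and 50.5% of the summed level in csu6-2, and 31.6, 31.0 and 32.0% in Col-0.

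**Figure D3:**
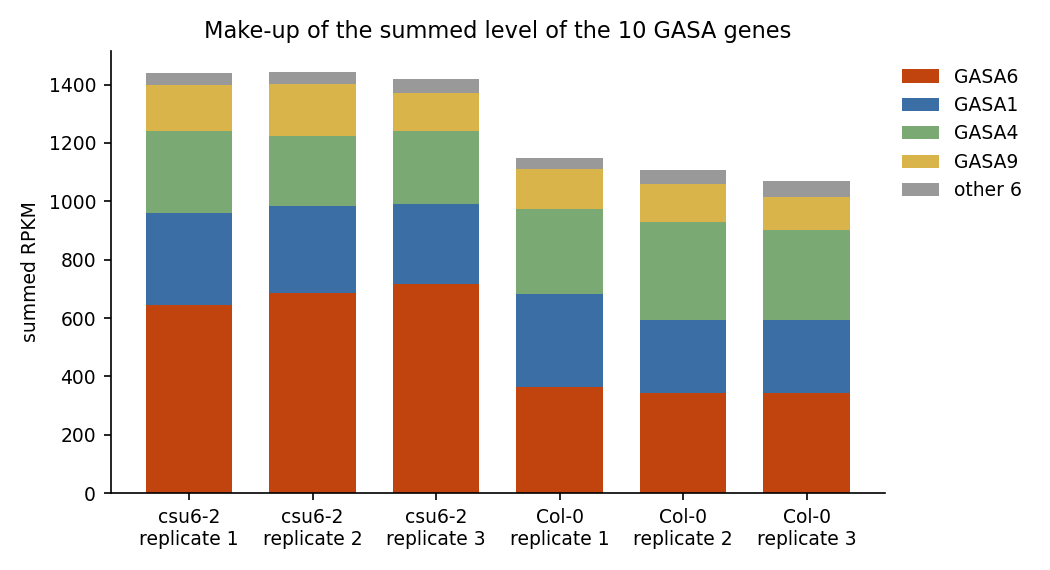
Summed RPKM of the 10 GASA genes in each library, csu6-2 on the left and Col-0 on the right, split by gene. The columns reach 1418 to 1444 RPKM in csu6-2 and 1069 to 1147 RPKM in Col-0, and the GASA6 segment at the base is the taller in csu6-2 while the other 9 genes together are close (751.6 and 758.7 RPKM on average).

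A ratio of members within a library does not depend on how libraries were scaled. GASA6 stood at 2.29, 2.82 and 2.87 times the RPKM of GASA4 in csu6-2, and at 1.26, 1.02 and 1.10 times in Col-0. Both genes were thus near the same level in the wild type, and GASA6 was well above GASA4 in every mutant library. The log2 ratio was 1.24 higher in csu6-2, a separation already fixed by GASA6 and GASA4 not overlapping in opposite directions, so no test is given. Relative to GASA14, GASA6 stood at 26.7, 34.1 and 28.7 times in csu6-2 and at 19.4, 14.3 and 11.2 times in Col-0, a log2 difference of 1.02. The spread of GASA14 was too small to undo the separation of GASA6, so no test is given here either. The differences were smaller relative to GASA1 and GASA9. GASA6 stood at 2.05, 2.30 and 2.60 times GASA1 in csu6-2 and at 1.13, 1.38 and 1.37 times in Col-0, a log2 difference of 0.84. It stood at 4.10, 3.88 and 5.48 times GASA9 in csu6-2 and at 2.60, 2.61 and 2.99 times in Col-0, a log2 difference of 0.70. GASA6 was relatively higher in every mutant library by all 4 ratios, which share the GASA6 values. The spread of GASA1 and GASA9 was also too small to undo the separation of GASA6. The 4 ratios thus restate that separation and are not separate support for it.

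Of the 5 other genes that the reference annotates as gibberellin-regulated family members, GASA7, GASA8, GASA12, GASA13 and GASA15, 3 were listed at 0 in every library (GASA8, GASA12 and GASA15). GASA7 had 21.7, 20.7 and 22.8 RPKM in csu6-2, and 21.3, 25.3 and 21.2 RPKM in Col-0 (log2 change -0.05, adjusted p = 0.759), with overlapping groups. GASA13 had 9.50, 3.03 and 5.12 RPKM in csu6-2, and 8.16, 14.95 and 11.9 RPKM in Col-0. Its libraries were spread within both genotypes and overlapped, and it did not pass (log2 change -0.96, 95% interval -2.11 to 0.20, adjusted p = 0.249). By limma 0 of these 2 tested genes passed, also at an unadjusted p under 0.05.

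The genes that make, inactivate and perceive gibberellin were then examined. Of 27 such genes, 19 were tested, and 0 were higher, 3 were lower and 16 did not pass by limma. The shares over all genes at that threshold were 3.55% higher and 9.38% lower. At an unadjusted p under 0.05, 1 of the 19 was higher and 5 were lower, where 7.58% of all genes were higher and 20.3% lower. These 19 genes had a median log2 change of -0.08, close to the -0.07 of all genes. Of 7 tested synthesis genes, 2 were lower. GA2, the ent-kaurene synthase, had 3.05, 2.99 and 3.41 RPKM in csu6-2, and 4.38, 4.53 and 5.40 RPKM in Col-0 (log2 change -0.47, SE 0.11, adjusted p = 0.0153). GA3, the ent-kaurene oxidase of the next step, had 14.0, 14.2 and 12.4 RPKM in csu6-2, and 18.8, 19.2 and 15.7 RPKM in Col-0 (log2 change -0.37, SE 0.10, adjusted p = 0.0216). For both genes every mutant library lay below every wild-type library.

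Of the 3 receptors and the F-box gene SLY1, which marks DELLA proteins for breakdown, only GID1A passed. GID1A had 16.6, 14.45 and 14.5 RPKM in csu6-2, and 18.1, 20.8 and 18.8 RPKM in Col-0 (log2 change -0.32, SE 0.09, adjusted p = 0.0291). None of the 5 DELLA genes passed by limma, their log2 changes lying between -0.24 and -0.08 (1 of 5 lower at an unadjusted p under 0.05, against 20.3% of all genes). Both tested genes of gibberellin inactivation missed the threshold. The 3 calls were not stable to leaving out a library. For GA2 the adjusted p became 0.0568 when csu6-2 replicate 2 was dropped and 0.0617 when Col-0 replicate 3 was dropped. For GA3 it became 0.088 on dropping csu6-2 replicate 3, 0.0635 on dropping Col-0 replicate 1, 0.0978 on dropping Col-0 replicate 2, and 0.0538 with no filter. GID1A was lost under 7 of 13 alternatives, among them median-of-ratios scaling (adjusted p = 0.0538). Dropping csu6-2 replicate 2 gave GID1A an adjusted p of 0.104, csu6-2 replicate 3 one of 0.1, Col-0 replicate 2 one of 0.13 and Col-0 replicate 3 one of 0.0501.

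**Figure D4:**
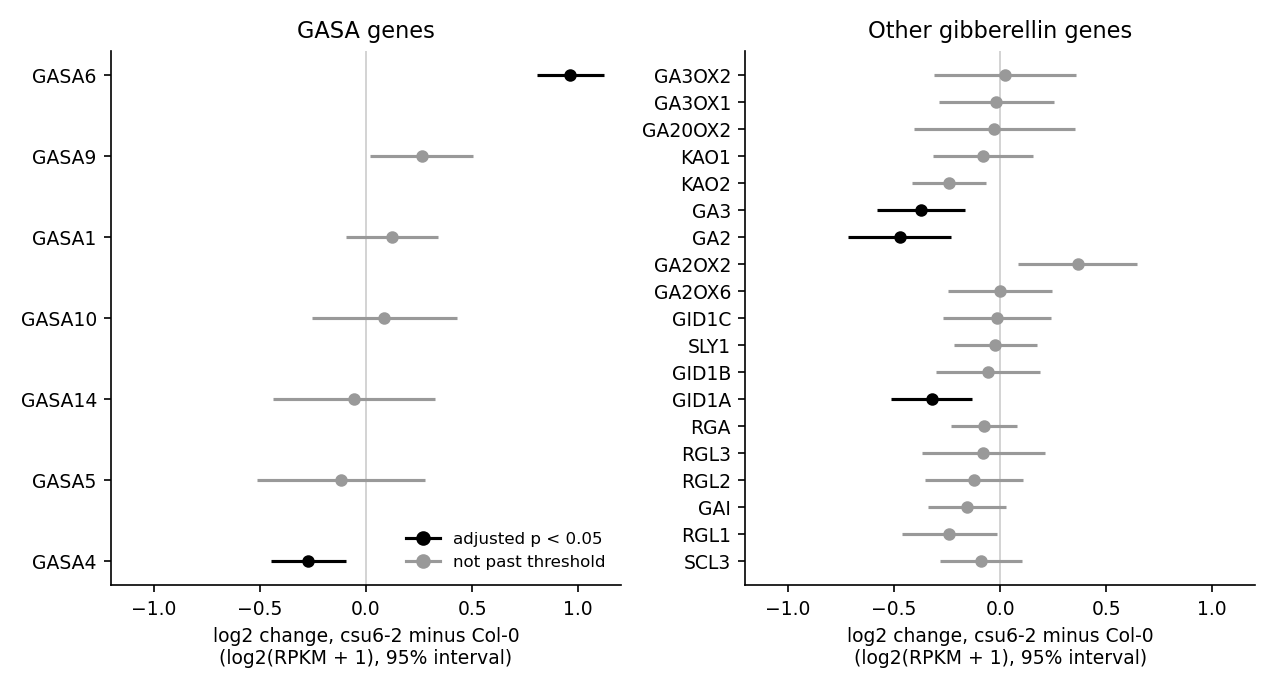
Log2 change (csu6-2 minus Col-0, on log2(RPKM + 1)) with its 95% interval for the 7 tested GASA genes (left) and the 19 tested gibberellin genes (right). Black marks an adjusted p under 0.05. GASA6 stands apart at 0.96, GASA4 is at -0.27, and GA2, GA3 and GID1A are the lower calls on the right.

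EXPA1, an expansin gene of cell wall loosening reported to act downstream of GASA6 in germinating seeds, rose in csu6-2. It had 259.6, 233.5 and 277.4 RPKM in csu6-2, and 179.0, 168.9 and 180.9 RPKM in Col-0. The groups were well apart (log2 change 0.54, SE 0.08, adjusted p = 0.000839), and the call held under all 13 alternatives. A link between the rises of EXPA1 and GASA6 in these seedlings was not tested. PIF4 had 29.8, 41.2 and 45.0 RPKM in csu6-2, and 19.5, 15.0 and 19.6 RPKM in Col-0. PIF5 had 25.4, 30.2 and 31.6 RPKM in csu6-2, and 20.3, 14.0 and 12.7 RPKM in Col-0. Both passed (log2 changes 1.05 and 0.87, adjusted p = 0.00576 and 0.0112), although PIF5 missed the threshold once csu6-2 replicate 3 (0.0557) or Col-0 replicate 2 (0.0592) was dropped.

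PIF proteins bind the G-box CACGTG and the PBE-box CACATG, so promoters were searched on both strands from 250 bases before to 50 bases after the annotated gene start. The G-box was found in 0 of 10 members and in 7.68% of 27443 promoters. The PBE-box was found in 4 members (GASA3, GASA4, GASA6 and GASA14) and in 12.9% of promoters. A gibberellin response element, TAACAAA, was found in GASA9 and GASA11 and in 18.4% of promoters. The windows of the members called higher and lower are shown 5′ to 3′ on the gene's strand with the PBE-box, on either strand, in capitals. They lie at chr1:28052780-28053079 for GASA6 and chr5:4944566-4944865 for GASA4, both on the plus strand of TAIR10.1.
GASA6: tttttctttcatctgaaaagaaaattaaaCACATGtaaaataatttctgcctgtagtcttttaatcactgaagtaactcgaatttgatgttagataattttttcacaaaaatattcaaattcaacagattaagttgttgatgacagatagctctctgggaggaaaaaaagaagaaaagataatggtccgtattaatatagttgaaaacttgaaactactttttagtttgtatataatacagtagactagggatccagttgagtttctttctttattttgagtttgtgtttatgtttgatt
GASA4: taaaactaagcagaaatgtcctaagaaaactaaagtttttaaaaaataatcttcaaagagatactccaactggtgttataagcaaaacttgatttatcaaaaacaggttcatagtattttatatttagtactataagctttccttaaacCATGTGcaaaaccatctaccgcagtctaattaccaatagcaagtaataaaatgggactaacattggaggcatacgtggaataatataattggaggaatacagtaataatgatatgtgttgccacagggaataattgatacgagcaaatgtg
Relative to the annotated start the match began at -221 in GASA6 and at -101 in GASA4. The rise of GASA6 and the lower level of GASA4 were thus both seen with 1 PBE-box match in this window, and no binding was measured.

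The tested genes with profiles most like GASA6 were ranked by the root-mean-square difference in mean-centred log2(RPKM + 1) over the 6 libraries. This is a description of profiles that are mostly a step between genotypes. DELTA-TIP (AT3G16240), a water channel of the vacuole membrane, was nearest at 0.06, with 390.0, 437.1 and 464.3 RPKM in csu6-2 and 232.6, 200.1 and 217.4 RPKM in Col-0. It was followed by UPB1 (AT2G47270), a regulator of reactive oxygen in roots (0.06), and by ESE3 (AT5G25190), of the ethylene response factor family (0.08). ELIP1 (AT3G22840), an early light-induced protein of chloroplasts, and AT3G58270 came next (0.08 and 0.09). Among the members themselves, GASA9 was nearest to GASA6 (0.39) and GASA4 was farthest (0.63).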

How the data were processed

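The authors deposited one table per library with an RPKM value for each of 32678 genes. The unit was read from the values, which are not whole, have 2 decimals and sum to 813352 to 836697 per library, and RPKM or FPKM cannot be told apart. Per the submitters' processing notes, the tools were HISAT2 and edgeR 3.0.8 with TAIR10 as build, and no role is stated for either tool. The sources used here do not give the counting step, its lengths or its strand setting, so overlapping or antisense genes cannot be separated. Genes with at least 1 RPKM in 3 or more libraries (18885) were fitted as log2(RPKM + 1) by limma (version 3.58.1, R 4.3.3, statmod 1.5.0), using lmFit and a trended, robust eBayes. P-values were two-sided and adjusted by Benjamini-Hochberg over all tested genes. This scale understates the change of low genes. The fit was checked on simulated data with independent normal noise drawn from its own fitted spread. Such data do not cover batches or differences in scaling between libraries. The summed level without GASA6 was compared by exact permutation over libraries. Ratios and the sum of all 10 members are given without a test. Identifiers were matched to the TAIR10.1 annotation (31912 of 32678, all 10 members), which gave lengths, coordinates and sequences. Pearson correlations between libraries lay between 0.991 and 0.993 for the same genotype and between 0.983 and 0.989 otherwise. The depth was estimated from the steps of low values, which assumes the reference exon lengths. Steps were searched within a set range of sizes, so the depth is bounded by that range and steps outside it were not considered. Counts were not recovered, so no counting interval is given. Members and lists were chosen with earlier results of these data known. All members were named, and the 5 genes most like the member of lowest adjusted p were added. Genes of the gibberellin list other than SLY1 were named where past the threshold, as were EXPA1, PIF4 and PIF5. The green-tissue and root markers and the other GASA family genes were named whether or not they passed. GASA7 and GASA13 were named after their values were seen. Alternatives were another pseudocount, filter, scaling or limma setting, a replicate block and leaving out each library.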

Additional observations from a re-analysis of the deposited data

How the results depend on the processing

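The GASA6 call held under all 13 alternatives, with adjusted p of 1.89e-06 to 0.000599. The count of members called lower was 0 without a filter, with median-of-ratios scaling and without trend and robust options, and was 0 to 1 with a library left out. The count called higher was 1 to 2 with a library left out. Replicate numbers were not taken to pair libraries, since no paired design is stated. The deviations of same-numbered libraries correlated at 0.204, 0.0512 and 0.221, and those of different-numbered libraries at -0.304 to 0.121. A weak pairing by number is therefore not excluded. With the replicate block, 2 members were higher, GASA9 being added (log2 change 0.26, adjusted p = 0.019), and PIF5 did not pass (adjusted p = 0.0656). Over all genes, 671 were higher and 1771 lower, or 813 and 2156 with the replicate block. Median-of-ratios scaling, which moved the median log2 change by 0.07, gave 1066 higher and 1113 lower, and leaving out a library gave 389 to 674 higher and 859 to 1790 lower, both counts being most reduced without csu6-2 replicate 2 (426 and 968), csu6-2 replicate 3 (389 and 1127) or Col-0 replicate 2 (420 and 859). The log2 change ranged with a library left out from -0.22 to 0.11 for GASA14 and from -0.10 to 0.24 for GASA10, and was 0.018 for GASA14 with median-of-ratios scaling. The summed level had a log2 difference of 0.37, and of -0.015 without its most abundant member, GASA6. The cause of these shifts was not tested, except that the last follows from the removal of GASA6. GASA10 gave no value at a minimum of 5 RPKM, and GASA2, GASA3 and GASA11 had values only without a filter (adjusted p = 0.616, 0.261 and 0.85). With 3 libraries a genotype, exact tests cannot go below p = 0.1.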
